A study of Mus musculus with 12 samples.

Results

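The suppressor of cytokine signaling (SOCS) family was examined in CD8+ T_prog_ cells with and without UTX. Its 8 genes, *Cish* and *Socs1* to *Socs7*, were selected by gene symbol from the 25860 genes listed in the RNA-seq table, together with every ATAC-seq peak that the authors had annotated to one of them. T_prog_ cells were sorted from pancreatic lymph nodes of nonobese diabetic (NOD) females, with 3 RNA-seq and 3 ATAC-seq libraries from each of 2 genotypes. Both genotypes carried the 8.3 transgene, a T cell receptor that recognizes the β cell antigen IGRP. *NOD-TCR 8.3 UTX TCD* mice carried floxed alleles of *Kdm6a*, the gene that encodes UTX, and Cre under the *Lck* promoter, a driver that acts in T cells generally and not in T_prog_ cells alone. *NOD-TCR 8.3 WT* mice were the UTX-sufficient controls, which in the parent line are littermates that also carry the floxed alleles but no Cre. No treatment was given, and the age of the mice used for these libraries is not given in the sources used here. The design text deposited with the series describes the progenitor gate as Ly108+CXCR6-, whereas the paper describes it as Ly108+CD39-.

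SOCS proteins form a feedback loop on cytokine receptors. Cytokine binding activates receptor-bound JAK kinases, which phosphorylate STAT transcription factors, and STATs induce *Cish* and several *Socs* genes. Each SOCS protein binds phosphotyrosines through an SH2 domain and recruits an elongin-cullin ubiquitin ligase through its SOCS box, and SOCS1 and SOCS3 also block JAK activity directly. In CD8+ T cells, SOCS1 restrains responses to interferons and common γ chain cytokines, SOCS3 restrains signaling through gp130, and CIS, the product of *Cish*, dampens signaling downstream of the T cell receptor and of STAT5-activating cytokines.

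The deleted gene was examined first. Normalized counts, which are reads per gene divided by 1 size factor per library, were 28365, 28949 and 29172 for *Kdm6a* in the WT libraries and 24158, 24792 and 24579 in the UTX TCD libraries. Every UTX TCD library lay below every WT library, and the log2 fold change (UTX TCD over WT throughout) was -0.23 (SE 0.04, limma adjusted p = 0.00114). A count over the whole gene cannot separate its exons, and loss of the floxed part was not examined. Among the markers of the sort, *Slamf6* (Ly108) was at 28378 ± 5425 (n = 3, SD) in WT and 34357 ± 2989 (n = 3, SD) in UTX TCD cells, and *Entpd1* (CD39) was low at 17.3 ± 10.7 (n = 3, SD) and 7.24 ± 4.82 (n = 3, SD). *Cxcr6* was present in both genotypes, at 12033 ± 2146 (n = 3, SD) in WT and 5658 ± 355 (n = 3, SD) in UTX TCD cells.

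*Cish*, *Socs1* and *Socs3* were higher without UTX, and none of the other 5 members passed the test. A gene was called at a Benjamini-Hochberg adjusted p under 0.05 with an absolute log2 fold change over 0.5, using limma on log2(normalized count + 1) across 14459 genes whose normalized count averaged 10 or more, a filter that all 8 members passed. Thus 3 of 8 members were called higher and 0 were called lower, beside 10.5% of all tested genes called higher and 7.05% called lower. The median log2 fold change was 0.13 over the 8 members and -0.00 over all tested genes. Because these are bulk libraries, more cells that express a gene and more RNA per cell cannot be told apart.

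*Cish* had the largest fold change of the 8 members. Its normalized counts were 756, 827 and 742 in the WT libraries and 2423, 2705 and 2161 in the UTX TCD libraries. The groups did not overlap, and the lowest UTX TCD library was far above the highest WT library. The mean was 775 ± 45.8 (n = 3, SD) in WT and 2430 ± 272 (n = 3, SD) in UTX TCD cells, a 3.12-fold difference with a 95% interval from 2.69 to 3.62 (log2 fold change 1.64, SE 0.09, limma adjusted p = 3.92e-06). By p-value *Cish* ranked 124 among the tested genes. In GENCODE M21, *Cish* (chr9:107296026-107302784, plus strand) is overlapped by 2 genes on the other strand, and the strand setting of the counting is not given in the sources used here, so reads from the 2 strands of this locus cannot be told apart.

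*Socs1*, which encodes a direct inhibitor of JAK kinases, was counted at 888, 966 and 913 in WT and at 1415, 1453 and 1514 in UTX TCD libraries. The replicates of each genotype lay close together and the genotypes did not overlap. The means of 922 ± 39.8 (n = 3, SD) and 1461 ± 50.1 (n = 3, SD) differed 1.58-fold (95% interval 1.41 to 1.78, log2 fold change 0.66, SE 0.07, limma adjusted p = 0.000154).

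*Socs3*, which acts on gp130 receptors, was counted at 6923, 7675 and 7378 in WT and at 11011, 11356 and 15311 in UTX TCD libraries. The genotypes did not overlap, but UTX TCD replicate 3 stood above the other two. The means were 7325 ± 379 (n = 3, SD) and 12559 ± 2389 (n = 3, SD), a 1.70-fold difference (95% interval 1.42 to 2.02, log2 fold change 0.76, SE 0.11, limma adjusted p = 0.000731). Without UTX TCD replicate 3 the log2 fold change was 0.61 and the gene was still called.

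**Figure D1:**
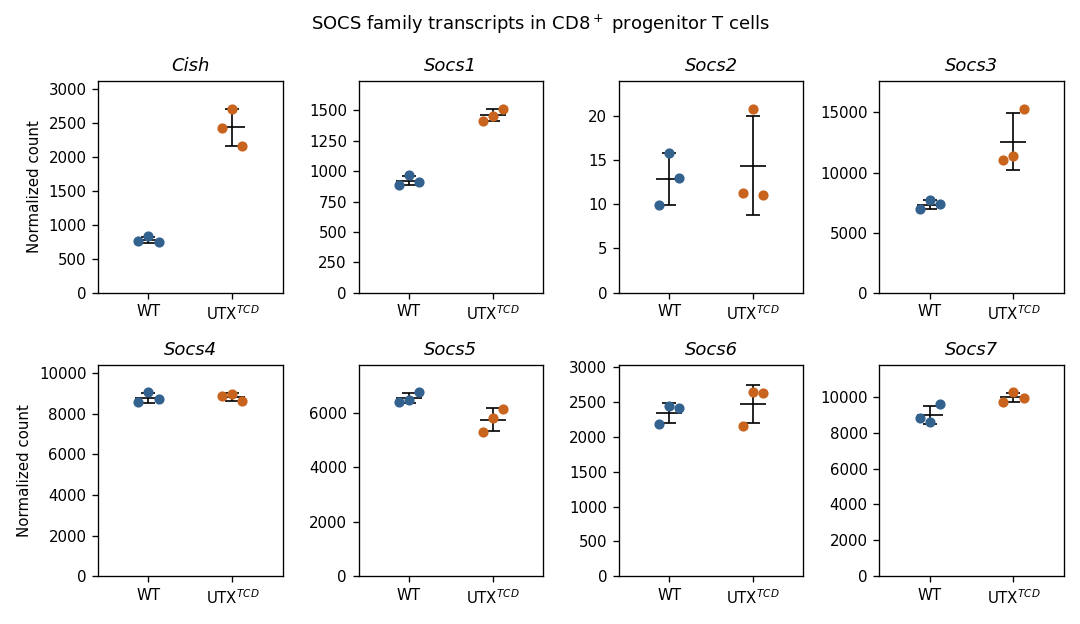
Normalized count (vertical axis, from 0 and scaled per gene) of the 8 SOCS family genes in 3 WT (blue) and 3 UTX TCD (orange) libraries. Points are libraries and bars are the mean ± SD, and all 3 UTX TCD points lie above all 3 WT points for *Cish*, *Socs1*, *Socs3* and *Socs7*.

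None of the remaining members was called. *Socs7*, whose product binds signaling adaptors of the insulin pathway, was counted at 8825, 8578 and 9570 in WT and at 9708, 10242 and 9938 in UTX TCD libraries. *Socs5*, whose product has a long N-terminal region as does that of *Socs4*, was counted at 6423, 6477 and 6764 in WT and at 5304, 5826 and 6163 in UTX TCD libraries. For both genes the groups did not overlap and the adjusted p was under 0.05, at 0.0454 for *Socs7* and 0.0355 for *Socs5* (limma), but the log2 fold changes of 0.15 (95% interval 0.03 to 0.27) and -0.19 (95% interval -0.33 to -0.05) were below the fold limit. As each library was left out, the adjusted p of *Socs7* ranged from 0.0195 to 0.157 and that of *Socs5* from 0.013 to 0.113 (limma), and for either gene 5 of the 6 values were over 0.05. The adjusted p was also over 0.05 for *Socs7* with no filter on low values (limma, 0.0602) and with TMM scaling (limma, 0.0666), and for *Socs5* with libraries scaled to the same sum (limma, 0.124). With no limit on the fold change, 4 members were called higher and 1 lower, beside 20.2% and 20.5% of all tested genes. In all, the values of 5 of the 8 members did not overlap between genotypes, beside 51.9% of all tested genes.

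*Socs4* was at 8792 ± 241 (n = 3, SD) without and 8824 ± 183 (n = 3, SD) with deletion of UTX (log2 fold change 0.01, 95% interval -0.09 to 0.10). The sign turned to -0.01 when libraries were scaled by TMM. *Socs6* was at 2347 ± 144 (n = 3, SD) and 2476 ± 274 (n = 3, SD), a log2 fold change of 0.07 with a 95% interval from -0.13 to 0.28. The groups overlapped for both genes. In GENCODE M21, *Socs6* is overlapped by 3 genes, on both strands, and reads from these cannot be told apart here. *Socs2*, a regulator of growth hormone signaling, was barely detected, with 10, 16 and 17 reads in the WT libraries and 5, 26 and 15 reads in the UTX TCD libraries. Its log2 fold change of 0.11 had a 95% interval from -0.80 to 1.02, so a difference of the size seen for *Socs1* was not detectable at this depth, and its sign turned to -0.05 without WT replicate 1 and to -0.17 without UTX TCD replicate 2.

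Levels were compared between members per kilobase of exon, using the merged exons of all GENCODE M21 transcripts of a gene. In WT cells *Socs3* was highest at 2534 ± 131 normalized counts per kilobase (n = 3, SD). *Socs4* at 1279 ± 35.0 (n = 3, SD) and *Socs7* at 1238 ± 71.1 (n = 3, SD) came next and did not differ beyond their spread. *Socs5* followed at 1022 ± 28.5 (n = 3, SD), then *Socs1* at 317 ± 13.7 (n = 3, SD), *Socs6* at 207 ± 12.7 (n = 3, SD), *Cish* at 121 ± 7.13 (n = 3, SD) and *Socs2* at 1.35 ± 0.309 (n = 3, SD). By this measure the most strongly changed member, *Cish*, was among the least abundant in WT cells, where the median tested gene was at 703 per kilobase. The merged exons of *Cish* cover 6419 bases, nearly all of its gene span. Its level per kilobase and its place among the members depend on this choice of length and may be understated. In UTX TCD cells *Cish* stood at 379 ± 42.4 per kilobase (n = 3, SD), above *Socs6* at 218 ± 24.1 (n = 3, SD), and *Socs3* stood at 4344 ± 826 (n = 3, SD). By this measure *Socs3* moved from the 79.1 to the 89.1 percentile of tested genes, *Cish* from 27.4 to 39.4 and *Socs1* from 37.2 to 43.6.

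For each called member, the 3 tested genes with the most similar profile were taken by the root mean square difference of log2(normalized count + 1), centered on each gene's mean over the 6 libraries. The genes most like *Cish* were *Nav2* (difference 0.08), *Ifih1* (0.08) and *Uchl1* (0.09). *Asf1b* (0.02), *Ptms* (0.03) and *Hoxb4* (0.03) were most like *Socs1*. *Cenpe* (0.03), *Kif4* (0.04) and *Kif20a* (0.04) were most like *Socs3*. All 3 also had their highest value in UTX TCD replicate 3, which follows from choosing them by profile. *Kif20a*, for example, was counted at 1786, 1787 and 2340 in UTX TCD libraries against 1139, 1237 and 1142 in WT.

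Upstream of the family, *Stat2* was the one gene called among the JAK kinases and STATs reported here. Of these 10 genes, 1 was called higher and 0 lower (limma), or 2 and 0 with no limit on the fold change, beside 10.5% and 7.05% of all tested genes, or 20.2% and 20.5%. *Stat2*, whose product acts in type I interferon signaling, was counted at 17119, 16094 and 17406 in WT and at 33934, 34072 and 27645 in UTX TCD libraries, a log2 fold change of 0.91 (SE 0.08, limma adjusted p = 3.53e-05). The groups did not overlap. *Jak2* also did not overlap between groups and had an adjusted p of 0.00415 (limma), but its log2 fold change of 0.24 was below the fold limit. The groups did not overlap either for *Stat6* (higher, log2 fold change 0.07) and *Tyk2* (lower, -0.07), which makes 3 of the 10 higher and 1 lower, beside 25.8% and 26.1% of all tested genes. The STATs best known for inducing this family were close between genotypes. *Stat3* was at 39970 ± 824 (n = 3, SD) in WT and 42274 ± 2838 (n = 3, SD) in UTX TCD cells, with a log2 fold change of 0.08 (95% interval -0.04 to 0.20). *Stat5a* had a log2 fold change of -0.02 (95% interval -0.12 to 0.08) and *Stat5b* of 0.05 (95% interval -0.07 to 0.17). The log2 fold changes of *Jak1*, *Jak3*, *Tyk2*, *Stat4* and *Stat6* ranged from -0.07 to 0.11 and none was called. These are transcript levels, and phosphorylation was not measured.

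**Figure D2:**
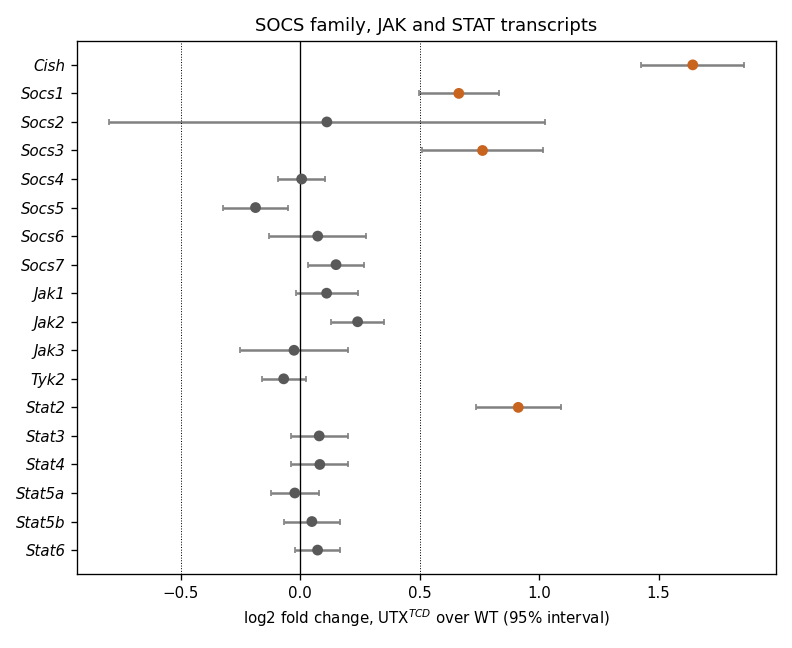
Log2 fold change, UTX TCD over WT (horizontal axis), of the 8 SOCS family genes and 10 JAK kinase and STAT genes, with 95% intervals from limma. Orange points were called, dotted lines mark the fold limit of 0.5 on either side, and the wide interval is that of the barely detected *Socs2*.

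Receptors that signal through JAKs moved in both directions. Of 29 listed, 21 were tested, 4 were called higher and 5 lower, beside 10.5% and 7.05% of all tested genes, and their median log2 fold change was -0.19. With no limit on the fold change 6 were called higher and 9 lower, beside 20.2% and 20.5%. The decreases included both chains of the interleukin-12 receptor. *Il12rb1* was at 1753 ± 60.2 (n = 3, SD) in WT and 730 ± 103 (n = 3, SD) in UTX TCD cells (log2 fold change -1.27, limma adjusted p = 2.7e-05), and *Il12rb2* had a log2 fold change of -0.96 (limma adjusted p = 0.000156). *Ifngr1*, the ligand-binding chain of the interferon-γ receptor, was at 19767 ± 1629 (n = 3, SD) and 10078 ± 924 (n = 3, SD), a log2 fold change of -0.97 (limma adjusted p = 2.14e-05). *Il6ra*, which pairs with gp130, had a log2 fold change of -0.68 (limma adjusted p = 0.000172). *Ifngr2*, the partner of *Ifngr1*, had a log2 fold change of -0.53, and its call was lost without WT replicate 3 or UTX TCD replicate 3, with log2 fold changes from -0.58 to -0.47 as each library was left out, with libraries scaled to the same sum and at a 1.5-fold limit. Among the increases, *Il2rb*, a chain shared by the interleukin-2 and interleukin-15 receptors, was at 38957 ± 2092 (n = 3, SD) in WT and 60166 ± 2973 (n = 3, SD) in UTX TCD cells (log2 fold change 0.63, limma adjusted p = 3.65e-05). *Il4ra*, a chain of the interleukin-4 receptor, was at 27477 ± 1685 (n = 3, SD) and 43490 ± 3094 (n = 3, SD), a log2 fold change of 0.66 (limma adjusted p = 6.35e-05). The calls of *Il2rb* and *Il4ra* were kept without each of the 6 libraries. The other two increases were at low levels. *Lifr* was at 10.8 ± 3.94 (n = 3, SD) and 44.7 ± 20.7 (n = 3, SD), and *Il23r* at 5.15 ± 3.49 (n = 3, SD) and 26.1 ± 23.5 (n = 3, SD), levels at which few reads were counted. The *Il23r* call was lost without WT replicate 1 or 3 or UTX TCD replicate 1, with a pseudocount of 5 and with no filter on low values. Without UTX TCD replicate 3 *Il23r* fell under the filter on low values and was not tested, and its log2 fold change was then 1.28, the lowest in a range up to 2.46 as each library was left out.

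Genes of the ubiquitin ligase machinery that SOCS boxes recruit differed by small amounts. Of 10 elongin-cullin partners, all tested, 0 were called higher and 1 lower (limma), with a median log2 fold change of -0.12. With no limit on the fold change, 0 were called higher and 5 lower, beside 20.2% and 20.5% of all tested genes. These were *Nedd8*, the elongin genes *Elob* (log2 fold change -0.36, limma adjusted p = 0.00117) and *Eloc* (-0.18), and the RING finger genes *Rbx1* (-0.20) and *Rnf7* (-0.21). The groups did not overlap for 5 partners, all lower, beside 26.1% of all tested genes. The gene called at the fold limit was *Nedd8*, the cullin modifier, at 3976, 3951 and 2784 in WT and 3230, 2108 and 2040 in UTX TCD libraries. Its groups overlapped, and its call (log2 fold change -0.55, limma adjusted p = 0.0437) was lost without WT replicate 1 or 2 or UTX TCD replicate 2 or 3, with log2 fold changes from -0.76 to -0.43 as each library was left out. It was also lost under DESeq2, with libraries scaled to the same sum and at a 1.5-fold limit. Of 28 other genes with a SOCS box, 18 were tested, 1 was called higher and 0 lower (limma), or 4 and 1 with no limit on the fold change, beside the same shares of all tested genes as above (10.5% and 7.05%, or 20.2% and 20.5%), with a median log2 fold change of 0.12. That gene was *Spsb1*, at 2189 ± 305 (n = 3, SD) in WT and 3211 ± 323 (n = 3, SD) in UTX TCD cells (log2 fold change 0.56, limma adjusted p = 0.00386). Its call was lost at a 1.5-fold limit and without WT replicate 2 or UTX TCD replicate 2, with log2 fold changes from 0.44 to 0.64 as each library was left out.

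Among 15 other negative regulators of JAK-STAT signaling, all tested, 1 was called higher and 0 lower (limma), beside 10.5% and 7.05% of all tested genes, with a median log2 fold change of -0.03. With no limit on the fold change 2 were called higher and 3 lower, beside 20.2% and 20.5%. The phosphatase genes *Ptpn1* and *Ptpn2* were among the latter, with log2 fold changes of -0.33 (limma adjusted p = 0.000501) and -0.30 (limma adjusted p = 0.000517). The groups did not overlap for 4 that were higher and 4 that were lower, beside 25.8% and 26.1%. *Usp18*, an interferon-induced inhibitor of the type I interferon receptor, was counted at 4520, 3652 and 3886 in WT and at 17460, 15954 and 11632 in UTX TCD libraries. The groups were far apart (log2 fold change 1.89, SE 0.14, limma adjusted p = 1.51e-05).

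Of 24 other genes known to be induced by STATs, all tested, 1 was called higher and 2 lower, beside 10.5% and 7.05% of all tested genes, with a median log2 fold change of 0.12. With no limit on the fold change, 9 were called higher and 3 lower, beside 20.2% and 20.5% of all tested genes. The groups did not overlap for 10 that were higher and 3 that were lower, beside 25.8% and 26.1%. Among those below the fold limit, *Tap1*, a peptide transporter gene, had a log2 fold change of 0.41 and *Ccnd3*, which encodes a cyclin, of 0.38. The survival gene *Bcl2* was at 17731 ± 581 (n = 3, SD) in WT and 43406 ± 5699 (n = 3, SD) in UTX TCD cells (log2 fold change 1.28, limma adjusted p = 6.75e-06). *Nfil3* was at 249 ± 34.4 (n = 3, SD) and 150 ± 15.7 (n = 3, SD), a log2 fold change of -0.72 (limma adjusted p = 0.00763). *Pim1*, a kinase gene induced by STAT5, was counted at 3429, 3513 and 3454 in WT and at 2065, 2120 and 3103 in UTX TCD libraries. UTX TCD replicate 3 lay nearest to WT, and the call (log2 fold change -0.54, limma adjusted p = 0.0124) was lost without UTX TCD replicate 1 or 2, with log2 fold changes from -0.73 to -0.43 as each library was left out, with libraries scaled to the same sum and at a 1.5-fold limit.

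Markers of cell types were examined because the 3 called members are expressed by many cells. Their counts are to be read beside the 10.5% higher and 7.05% lower among all tested genes, or 20.2% and 20.5% with no limit on the fold change. All 10 CD8+ T cell markers were tested and 0 were called (limma), or 1 higher and 6 lower with no limit on the fold change, and *Cd8a* was the most abundant. Of 10 progenitor markers, 2 were called higher (*Bach2* and *Ikzf2*) and 0 lower, and *Tcf7* was the most abundant. With no limit on the fold change, 4 progenitor markers were called higher and 0 lower. Of 10 mediator markers 8 were tested and 3 were called lower, *Cxcr6*, *Ccl5* and *Havcr2*. With no limit on the fold change, 0 mediator markers were called higher and 5 lower. Without WT replicate 1, 2 or 3 *Havcr2* fell under the filter on low values and was not tested, and its log2 fold change ranged from -2.37 to -2.08 as each library was left out. The *Ccl5* call was lost without replicate 1 or 2 of either genotype, with log2 fold changes from -1.90 to -0.99, and under edgeR and DESeq2. The mediator markers summed to 54480, 46971 and 57980 normalized counts in WT and to 37344, 39745 and 40831 in UTX TCD libraries, mostly from *Nkg7*. Of 8 myeloid markers 5 were tested and 3 were called lower, *Itgam*, *Itgax* and *Csf1r*. With no limit on the fold change, 1 was called higher and 3 lower. *Itgax* and *Csf1r* averaged 1.47 and 6.07 in UTX TCD cells. They passed the filter on low values only through their WT libraries. The 8 myeloid markers summed to 1279, 1258 and 1127 in WT and to 1111, 879 and 1045 in UTX TCD libraries, mostly from *Cd68*. *Cd68* itself went against the sum and rose without overlap, from an average of 632 in WT to 857 with UTX deleted. It was the myeloid gene called higher with no limit on the fold change (0.43 on the log2 scale, limma adjusted p = 0.0377). Among 8 B cell markers 7 were tested, 2 were called higher and 1 lower, with sums from 97245 to 114697 (WT) and from 82833 to 96362 (UTX TCD), mostly from *Ighm*. Of these, the *Ms4a1* call (higher) was lost without WT replicate 1 or 3 or UTX TCD replicate 2 or 3, with log2 fold changes from 1.21 to 2.17. The calls of *Cd22* (higher, log2 fold change 1.90) and *Cd79b* (lower, -1.98) were kept without each of the 6 libraries. With no limit on the fold change, 2 B cell markers were called higher and 2 lower. Among 5 CD4+ T cell markers 1 was called higher and 2 lower, with sums of 3176, 3201 and 2788 in WT and 6820, 6726 and 8962 in UTX TCD libraries, mostly from *Cxcr5*. *Cxcr5* was the gene called higher, and averaged 2581 in WT and 7122 in UTX TCD cells. *Cd4*, *Zbtb7b* and *Cd40lg* were lower without overlap, against the direction of the sum. *Zbtb7b* averaged 63.0 in WT and 16.8 in UTX TCD cells, and its call was kept without each of the 6 libraries. The *Cd4* call (lower) was lost without any library but UTX TCD replicate 2, with log2 fold changes from -0.89 to -0.54, and under DESeq2, with no filter on low values and with libraries scaled to the same sum. Among 5 NK cell markers 3 were tested, 1 was called higher and 1 lower, with sums of 13640, 15565 and 13404 in WT and 19221, 19187 and 26980 in UTX TCD libraries, mostly from *Eomes*, which CD8+ T cells also express. The *Eomes* call (higher) was lost without UTX TCD replicate 3, where its log2 fold change was 0.46. The NK cell marker called lower was *Gzma* (log2 fold change -1.06), and its call was kept without each of the 6 libraries. Of 6 dendritic cell markers 3 were tested and 1 was called higher, with sums from 201 to 248 (WT) and from 280 to 287 (UTX TCD), mostly from *Xcr1*. That gene was *H2-Ab1*, whose call was lost without WT replicate 3 or UTX TCD replicate 1 or 2, with log2 fold changes from 0.80 to 1.37, and with no filter on low values. Of 5 red cell markers 2 were tested and 0 were called, mostly *Alas2*. Of 8 pancreas markers 2 were tested and 1 was called lower, mostly *Prss2*, and *Ins2*, *Sst* and *Amy2a5* were listed at 0 in every library. The called gene was *Cela1*, which averaged 23.0 in WT and 6.40 in UTX TCD cells. It also passed the filter on low values only through its WT libraries. The part of any of these differences in the SOCS family result was not tested.

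ATAC-seq, which marks open chromatin by transposase insertion, gave 16 peaks annotated to 6 of the 8 genes. They come from 23932 deposited peaks, all with an FDR under 0.05 for a difference between genotypes but with no limit on its size, so peaks over that FDR are not listed and a gene without a listed peak is not shown to be closed. Values are the authors' mean log2 normalized reads per genotype, with no replicate spread. Of the 16 peaks, 10 were higher and 6 were lower in UTX TCD cells (62.5% higher), beside 68.8% higher among all listed peaks. The genotype means were over 0.5 apart in 10 of the 16 (62.5%), beside 73.1% of all listed peaks, and 7 of these 10 were higher, beside 67.5% of all listed peaks that far apart. *Socs4* and *Socs7* had no listed peak.

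At *Cish* the promoter peak was slightly lower and the peaks downstream were higher. The promoter peak (chr9:107296388-107296788, mm10) was at 10.48 in WT and 10.16 in UTX TCD cells, a difference of -0.31, which is within 0.5. The intergenic peaks at chr9:107306185-107306585 and chr9:107312857-107313257, 9.73 and 16.4 kb downstream of the start site, were higher by 0.48 and 0.60, the second from 10.15 to 10.75.

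*Socs3* also had a mixed pattern. Of its 3 peaks 2 were lower and 1 was higher in UTX TCD cells. The peak at chr11:117954140-117954540 was lower, by a difference of -0.44, and the peak 38.3 kb downstream was higher by 0.66.

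The 5 peaks annotated to *Socs1* lay far from it. The nearest (chr16:10768823-10769223), intergenic and 16.5 kb downstream, was at 9.32 in WT and 8.05 in UTX TCD cells, a difference of -1.27 and the largest decrease among the 16 peaks. The other 4 were 85.3 to 101.9 kb away, inside the gene *Clec16a*. In its intron 21 of 22, a pair of neighboring peaks had differences of -0.86 and -0.89, whereas the peaks in introns 18 and 19 had differences of 0.59 and 0.44. *Clec16a* transcripts were at 10486 ± 554 (n = 3, SD) in WT and 10474 ± 236 (n = 3, SD) in UTX TCD cells, which is -0.00 on the log2 scale (95% interval -0.11 to 0.11). The intron 18 peak overlaps an annotated exon and also lies on the gene *Gm15558*. *Gm15558* was at 145 ± 29.1 (n = 3, SD) in WT and 186 ± 9.82 (n = 3, SD) in UTX TCD libraries. Its groups did not overlap and it was not called (log2 fold change 0.37, 95% interval -0.04 to 0.79, limma adjusted p = 0.136). Reads of *Clec16a* and *Gm15558* cannot be told apart where the 2 genes overlap.

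*Socs2*, with almost no transcript in either genotype, had 3 peaks that were all higher in UTX TCD cells. The promoter peak (chr10:95416694-95417094) was at 8.17 in WT and 8.81 in UTX TCD cells, the peak at chr10:95414603-95415003 at 7.02 and 8.06, and the peak at chr10:95395147-95395547 at 6.33 and 7.63. The last is annotated as intergenic by the authors and lies within the GENCODE M21 span of *Socs2*. The single peaks of *Socs5*, in intron 1 of 2 (chr17:87108890-87109290), and of *Socs6*, at -30.5 kb from its start site (chr18:88924485-88924885), were higher by 0.46 and 1.61. The *Socs6* peak is also annotated as intergenic by the authors and lies within the GENCODE M21 span of *Socs6* (chr18:88665224-88927481, minus strand), which extends beyond the start site they used.

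**Figure D3:**
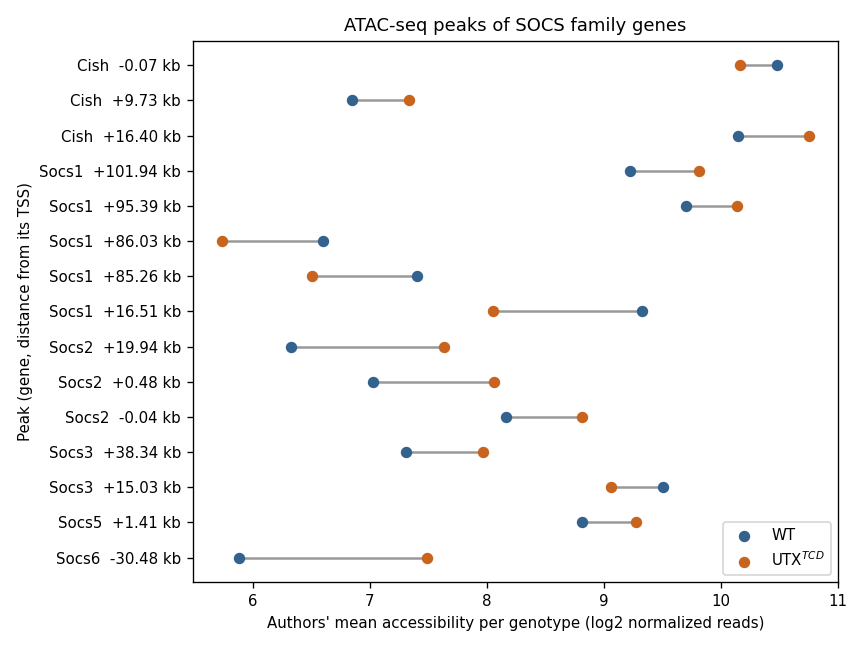
The authors' mean accessibility (log2 normalized reads, horizontal axis) of 15 of the 16 listed ATAC-seq peaks of SOCS family genes in WT (blue) and UTX TCD (orange) cells, by gene and distance from its start site. Lines join the genotypes, and orange lies to the right of blue for 10 peaks, including all 3 of *Socs2*, and to the left for 5, including the *Cish* promoter.

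Because STATs induce this family, the peaks and promoters were searched for the STAT motif TTCNNNGAA, whose pattern is the same on both strands, and on both strands for the TCF motif CTTTGAT. All 3 *Cish* peaks held TTCNNNGAA, with 3 matches in the promoter peak and 1 in each downstream peak, as did the nearest *Socs1* peak. Among all listed peaks of the same length of 401 bases, 11.9% held a match. TTCNNNGAA was also in a second *Socs1* peak, in intron 19 of *Clec16a*, and in the *Socs2* promoter peak, with 2 matches, and in none of the 3 *Socs3* peaks. CTTTGAT was in none of the 16 peaks, beside 9.01% of all listed peaks. In the RefSeq promoter windows of 300 bases (GRCm38.p6, the build of mm10), found for 4 of the 8 genes, *Cish* had 2 matches to TTCNNNGAA and *Socs3* had 1, while those of *Socs1* and *Socs4* had 0, beside 8.3% of all such windows. A match describes letters only, and binding was not examined.

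The sites in the *Cish* and *Socs3* promoter windows are shown because both transcripts rose, with the motif TTCNNNGAA in capitals. The *Cish* stretch is chr9:107296655-107296682 on the plus strand, inside the promoter peak, and the *Socs3* stretch is chr11:117969502-117969530 on the minus strand.
*Cish* promoter sites: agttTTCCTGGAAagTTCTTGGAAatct
*Socs3* promoter site: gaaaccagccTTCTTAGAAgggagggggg

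The middle 200 bases of 3 intergenic peaks are shown on the plus strand, with TTCNNNGAA in capitals where present. They are the higher peaks downstream of *Cish* (chr9:107306285-107306484 and chr9:107312957-107313156) and the lower peak downstream of *Socs1* (chr16:10768923-10769122). None overlaps an annotated exon in GENCODE M21 or RefSeq. Among these 3, the motif is present in the higher peaks and in the lower peak. The peaks of *Socs3*, none of which held the motif, are not printed.
*Cish* first downstream peak: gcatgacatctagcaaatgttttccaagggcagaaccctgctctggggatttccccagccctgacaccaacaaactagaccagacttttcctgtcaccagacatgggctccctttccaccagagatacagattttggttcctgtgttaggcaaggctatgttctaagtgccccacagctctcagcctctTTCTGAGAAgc
*Cish* second downstream peak: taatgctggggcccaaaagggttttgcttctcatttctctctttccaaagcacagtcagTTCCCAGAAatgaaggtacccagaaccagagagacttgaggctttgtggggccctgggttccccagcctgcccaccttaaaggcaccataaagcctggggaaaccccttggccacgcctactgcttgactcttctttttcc
*Socs1* downstream peak: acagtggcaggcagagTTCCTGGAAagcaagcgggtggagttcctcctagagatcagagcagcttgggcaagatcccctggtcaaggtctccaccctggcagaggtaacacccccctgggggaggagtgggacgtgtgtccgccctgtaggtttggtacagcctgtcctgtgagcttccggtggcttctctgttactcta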

How the data were processed

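The authors aligned RNA-seq reads to mm10 with HISAT2 2.2.1, counted them with featureCounts and deposited a normalized signal per gene, the count divided by a DESeq2 size factor. The deposited ATAC-seq values are log2 mean concentrations per genotype from DiffBind, annotated with HOMER. Both files also hold the authors' own comparisons (fold changes with their errors, p-values, FDR), which were not used. Dividing each library by its smallest step gave whole reads for 100% of values (within 0.01), or 61512402 to 193568919 reads per library.

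Testing used limma 3.58.1 (R 4.3.3, eBayes with trend) and genotype alone. A fold change on the log2(value + 1) scale understates changes of low genes. For a single gene, 3 libraries against 3 allow no exact two-sided permutation p below 0.10. edgeR 4.0.16 and DESeq2 1.42.0 on recovered reads were alternatives, beside other pseudocounts, filters, scalings, fold limits, a replicate block and each library left out. Named genes were the 8 members, *Kdm6a*, JAKs and STATs, up to 6 called genes per list, and the 3 likest genes of called members; other list and marker genes, *Clec16a* and *Gm15558* were named after their values were seen. Members and lists were chosen with earlier results of these data known. One listed marker, *Hbb-bt*, was not analysed here, and 1 other listed gene and 1 peak are not reported here. Exon lengths and positions came from GENCODE M21, and sequences from GRCm38.p6.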

Additional observations from a re-analysis of the deposited data

How the results depend on the processing

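The calls of *Cish*, *Socs1* and *Socs3* were kept under both other pseudocounts, both other filters, both other scalings, edgeR, DESeq2, both other fold limits, the replicate block and each library left out, with log2 fold changes over the left-out libraries from 1.56 to 1.72, from 0.64 to 0.70 and from 0.61 to 0.85. Over the same libraries *Socs2* ranged from -0.17 to 0.26 and *Socs4* from -0.01 to 0.03, and TMM scaling gave *Socs4* -0.01; the cause was not tested. With no limit on the fold change, 1 member (*Socs5*) was called lower, *Socs7* joined those called higher, and 2924 genes were called higher and 2963 lower in place of 1518 and 1020, since that setting only removes a limit. *Socs2* was not tested at a mean of at least 50. With libraries scaled to the same sum, the elongin-cullin list had 0 called lower, the other SOCS box genes 2 called higher and the STAT-induced genes 1 called lower. Leaving out each library gave 0 to 1, 0 to 2 and 1 to 3 for these, and 1 to 2 STAT-induced genes called higher. Of the 16 peaks, 6 (37.5%) lay within 10 kb of a start site, beside 37.5% of all listed peaks, and 10 (62.5%) had genotype means over 0.5 apart, beside 73.1%. Same-numbered libraries were different mice, and the correlation of their deviations from the group means was over 0.1 in 1 of 3 pairs. The best correlation was with the same number for 2 of the 3 UTX TCD libraries and for 1 of the 3 WT libraries. With 3 libraries per genotype these values cannot show whether the numbers mark a shared batch. The replicate block gave 1484 genes higher and 990 lower, left 3 members called, gave *Socs7* a limma adjusted p of 0.0571 and ended the call of *Il23r*. At a mean of at least 50, *Lifr*, *Il23r* and the called markers *Cela1*, *Ms4a1*, *Csf1r*, *H2-Ab1*, *Itgax*, *Havcr2* and *Zbtb7b* were not tested. Depth limits *Socs2* most.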
